A study of Mus musculus with 6 samples.

Results

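The 9 tendon lineage genes were followed across cultured muscle-derived stem cells and embryonic stem cells of the mouse: the transcription factor genes Scx and Mkx, the membrane protein gene Tnmd, the matrix genes Tnc, Thbs4 and Comp, the lubricin gene Prg4, and the leucine-rich repeat genes Chad and Kera. They were found by the RefSeq accession of their probes, which gave 11 of the 55681 probes of the array, with 2 probes each for Tnc and Prg4 and 1 for each of the other genes. In 7 of the 9 genes the signal was called higher in the muscle-derived cells than in the embryonic stem cells, as in 28.3% of all genes tested. None of the 9 passed the test between the genotypes, and neither did any of the 25057 genes tested.

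Muscle-derived stem cells (MDSC) are the cells of a muscle digest that adhere last when the suspension is moved from dish to dish, and those used here were the sixth such fraction. They came from the hindlimb muscles of male mice of 5 weeks, either Mstn-null or wild type (WT), with 2 isolations of each genotype, taken at passage 1 and without treatment after growth in medium with fetal bovine serum, horse serum and chick embryo extract. Mstn encodes myostatin, a secreted inhibitor of muscle growth, and neither the allele nor the number of mice behind an isolation is given in the sources used here. The W4 line of male mouse embryonic stem cells (ESC), which is 1 established line, was taken at passages 12 and 15; the design text calls its culture feeder free, while the growth protocol describes mouse embryonic fibroblast feeders. Each culture was hybridised to 1 array, so a group holds 2 arrays, and the ESC spread is that between passages of a line.

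Per array, 53.3% to 64.6% of the 59305 non-control spots exceeded the scanner software's threshold for being well above background, and saturation was not recorded for any. Levels are log2 signals relative to the 75th percentile of the array, so a level of 0 is the signal at that percentile. Levels are compared between arrays for a probe and not between probes. Both WT arrays lay on a slide of their own, and the Mstn-null and ESC arrays shared the other slide, so that WT genotype and slide cannot be told apart, while Mstn-null MDSC and ESC were measured on the same slide. The Mstn probe was detected at -3.06 and -2.47 in the cultures labelled Mstn-null, whereas it was not well above background in WT MDSC (-4.90 and -6.71) or in ESC (-7.23 and -6.85), and so it showed no loss of Mstn signal under the label Mstn-null. It is not known here whether the probe lies in the deleted part, and every direction between genotypes rests on the labels. The 7 pluripotency markers averaged between -4.32 and -3.97 on the MDSC arrays, against 5.73 and 5.95 on the ESC arrays, so that the markers matched the label of the ESC line. RNA came from whole cultures, in which fewer cells of a type and less RNA per cell cannot be told apart.

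Tendon joins muscle to bone and consists largely of parallel collagen fibrils made by fibroblast-like tendon cells. Scleraxis, the product of Scx, is a basic helix-loop-helix transcription factor that marks tendon progenitors in the embryo and is needed for the tendons that transmit muscle force. Mohawk, the product of Mkx, is a homeodomain factor that sustains collagen fibril growth, and tenomodulin, the product of Tnmd, is a membrane glycoprotein of mature tendon cells and a known target of scleraxis. Thrombospondin 4, cartilage oligomeric matrix protein and tenascin C are secreted proteins that bind the collagen matrix, and several of these genes are also used by cartilage, synovium or the connective tissue of muscle.

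Scleraxis and its relatives bind DNA at the E-box, whose letters are CANNTG. The 250 bases before the start of 3 members are printed because these genes take different places in the results: Tnmd and Thbs4 were much higher in MDSC than in ESC, and Chad was not called between them. The sequences are those of RefSeq on GRCm38.p6, written 5′ to 3′ on the strand of the gene in lower case, with each CANNTG in capitals.
Tnmd, chrX:133850758-133851007, + strand: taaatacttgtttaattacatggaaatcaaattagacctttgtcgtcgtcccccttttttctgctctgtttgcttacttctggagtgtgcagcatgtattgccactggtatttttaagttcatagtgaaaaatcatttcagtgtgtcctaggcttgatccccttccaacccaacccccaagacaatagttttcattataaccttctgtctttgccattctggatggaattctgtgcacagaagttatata
Thbs4, chr13:92794819-92795068, - strand: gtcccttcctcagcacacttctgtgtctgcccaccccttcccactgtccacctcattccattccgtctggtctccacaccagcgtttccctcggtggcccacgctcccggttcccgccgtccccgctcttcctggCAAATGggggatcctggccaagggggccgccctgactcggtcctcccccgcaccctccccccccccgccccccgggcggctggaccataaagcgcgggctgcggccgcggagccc
Chad, chr11:94564797-94565046, + strand: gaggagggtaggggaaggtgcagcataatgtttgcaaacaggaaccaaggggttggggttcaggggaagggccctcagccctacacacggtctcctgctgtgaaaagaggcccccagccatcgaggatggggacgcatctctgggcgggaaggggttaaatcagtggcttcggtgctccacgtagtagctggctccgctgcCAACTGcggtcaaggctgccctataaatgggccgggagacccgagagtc

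The motif CANNTG is its own complement, so that a match counts for both strands. It was absent from the Tnmd window, occurred 1 time in the Thbs4 window, as CAAATG starting 115 bases before the transcript start, and 1 time in the Chad window, as CAACTG starting 49 bases before it. A TATAAA, searched on both strands, started 28 bases before the start of Chad and was not found in the windows of Tnmd and Thbs4. Among the windows of 32851 transcript starts of the same table, 66.2% held at least 1 CANNTG and 12.4% a TATAAA on either strand. These matches describe the letters alone. Of the 9 members, 5 had an entry in the promoter table.

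Differences between groups were tested with limma in 1 fit over 25057 genes and unnamed features, with p-values adjusted by Benjamini-Hochberg over all of them and a threshold of 0.05. The first comparison set the mean of both genotypes of MDSC against ESC. Of the 9 members, 7 were called higher in MDSC, 0 were called lower and 2 were not called; 28.3% of all genes tested were called higher and 31.4% lower. The arrays of both sides did not overlap in those 7 members, with MDSC higher, as in 33.0% of all genes tested. The median log2 difference of the 9 members was 5.19, or 4.86 with Tnmd and Kera at their bound, against -0.03 over all genes tested. In this comparison 64.97% of all genes had an unadjusted p under 0.05.

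Scx, the gene of the tendon-determining factor scleraxis (probe A_51_P380432), stood at 3.47 and 3.77 in Mstn-null MDSC and at 4.83 and 4.20 in WT MDSC, against -1.68 and -0.57 in ESC. All 6 arrays were well above background, and the lowest MDSC array lay far above the highest ESC array. The log2 difference between MDSC and ESC was 5.19 ± 0.38 (SE, n = 4 and 2 arrays, limma adjusted p = 6.62e-04), which is 36.4-fold. The WT arrays were both higher than the Mstn-null arrays, and that difference is given with the genotypes below.

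Mkx, the gene of the homeodomain factor Mohawk (probe A_51_P519008), stood at 0.46 and 0.89 in Mstn-null MDSC, at 1.68 and -0.93 in WT MDSC, and at -1.75 and -0.58 in ESC. The second WT array fell among the ESC arrays, so the groups overlapped. The difference between MDSC and ESC was 1.69 ± 0.80 and was not called (SE, n = 4 and 2 arrays, limma adjusted p = 0.124), with a 95% interval of -0.37 to 3.75. Without the second WT array it was 2.35 (adjusted p = 0.0153), and without the first it was 1.04. Over the alternatives that left out 1 array, the adjusted p of Mkx ran from 0.0153 to 0.435.

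Tnmd is a marker of tendon cells that have matured, and its probe (A_51_P108183) was printed in 10 spots. Its level was 0.90 and 0.36 in Mstn-null MDSC and -0.34 and -1.82 in WT MDSC, against -7.16 and -6.88 in ESC. All 4 MDSC arrays showed it well above background and neither ESC array did. Tnmd was therefore at least 29.1-fold higher in MDSC (limma adjusted p = 5.47e-04), where the bound sets the MDSC mean against the lowest signals that counted as well above background on the ESC arrays, or the probe's own signal if that was higher.

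Thbs4 encodes thrombospondin 4, a pentameric matrix protein of tendon and muscle attachment sites. Its probe (A_52_P401504) had 7.39 and 7.77 in Mstn-null MDSC and 6.95 and 4.43 in WT MDSC, against -2.71 and -1.48 in ESC. Both sides were well above background, and the second WT array was the lowest of the MDSC arrays by 2.52 below its replicate. The difference was 8.73 ± 0.78 (SE, n = 4 and 2 arrays, limma adjusted p = 0.00108), or 424.5-fold.

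Comp, the gene of cartilage oligomeric matrix protein, belongs to the same thrombospondin family. The level of its probe (A_51_P409010) was 6.24 and 5.23 in Mstn-null MDSC and 5.56 and 5.62 in WT MDSC, against -2.74 and -0.41 in ESC. The 4 MDSC arrays lay far above both ESC arrays. The Mstn-null arrays were 1.01 apart and the ESC arrays 2.33, gaps larger than those of 93.5% and 98.0% of all genes tested in the same group. The difference was 7.24 ± 0.71 (SE, n = 4 and 2 arrays, limma adjusted p = 0.00133).

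Tnc encodes tenascin C, a large hexameric protein of embryonic, healing and loaded connective tissue. Its brighter probe (A_52_P355169) stood at -0.01 and 0.77 in Mstn-null MDSC and at 0.73 and -1.11 in WT MDSC, against -2.72 and -2.36 in ESC. Every MDSC array lay above both ESC arrays, with a difference of 2.64 ± 0.57 (SE, n = 4 and 2 arrays, limma adjusted p = 0.0137). That call was lost without the ESC array of passage 12 (adjusted p = 0.0780) or of passage 15 (adjusted p = 0.0592). The dimmer probe (A_55_P2421597) had -1.76 and -0.60 in Mstn-null MDSC, -0.58 and -2.32 in WT MDSC, and -2.36 and -3.34 in ESC. With every probe tested on its own, its difference was 1.53 and was not called (limma adjusted p = 0.0926), so the 2 probes of Tnc had the same direction and differed in the call.

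Prg4 encodes lubricin, the proteoglycan that lets tendon and joint surfaces glide. Its brighter probe (A_55_P2023637) stood at 5.40 and 5.28 in Mstn-null MDSC and at 4.88 and 3.59 in WT MDSC, against -3.19 and -5.58 in ESC. It was well above background on 1 of 2 ESC arrays, that of passage 12. The fitted difference was 9.18 ± 0.76 (SE, n = 4 and 2 arrays, limma adjusted p = 8.78e-04), and its size rests partly on the background signal of the other ESC array. The dimmer probe (A_55_P2185860) was well above background on the first Mstn-null array alone, at -3.81, and was not tested; the mean over both probes gave a difference of 5.34.

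Chad encodes chondroadherin, a leucine-rich repeat protein of cartilage and tendon that binds collagen. Its probe (A_51_P480073) had -3.51 and -3.77 in Mstn-null MDSC, -2.50 and -2.20 in WT MDSC, and -3.24 and -3.46 in ESC, all well above background. The ESC arrays lay between those of the genotypes. The difference between MDSC and ESC was 0.36 ± 0.18 and was not called (SE, n = 4 and 2 arrays, limma adjusted p = 0.141), with a 95% interval of -0.10 to 0.82. On the slide that held both Mstn-null MDSC and ESC it was -0.29.

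Kera encodes keratocan, a keratan sulphate proteoglycan best known from the cornea and also found in tendon. Its probe (A_51_P123655), printed in 10 spots, had -1.13 and -1.64 in Mstn-null MDSC and -3.36 and -5.50 in WT MDSC, against -7.27 and -6.90 in ESC. It was well above background on both Mstn-null arrays and the first WT array, and on none of the other 3 arrays. Only Mstn-null MDSC thus met the condition for testing, that both arrays of some group be well above background. Kera was called higher in MDSC than in ESC (limma adjusted p = 0.00432), at 4.54-fold with the ESC arrays set as for Tnmd. The MDSC mean included the second WT array, where Kera was not well above background, so 4.54-fold is not a strict lower bound.

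**Figure D1:**
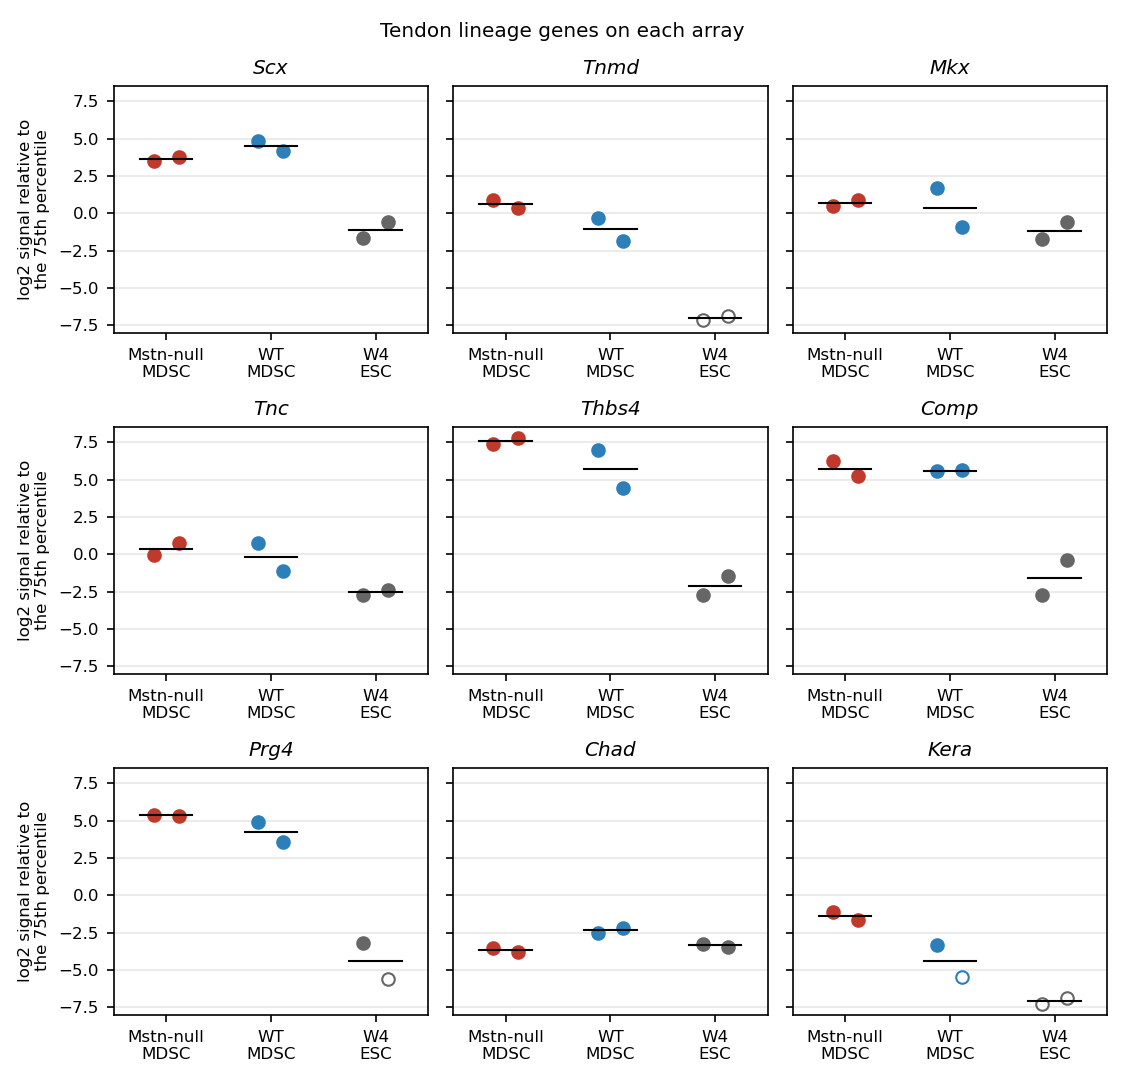
Level of each of the 9 genes on each array (y axis, log2 signal relative to the array's 75th percentile) in Mstn-null MDSC, WT MDSC and ESC (x axis); points are arrays, open where the probe was not well above background, and short lines are group means. Scx, Tnmd, Thbs4, Comp and Prg4 stand far above ESC in both genotypes, and the WT arrays of Mkx, Thbs4 and Kera lie far apart. Chad runs from -3.77 to -2.20 over the 6 arrays, with both WT arrays highest.

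Each genotype was also set against ESC. These comparisons share the ESC arrays, so their values are given side by side. In Mstn-null MDSC 7 of the 9 members were higher than in ESC and 0 lower, where 23.3% of all genes were called higher, and in WT MDSC 8 were higher and 0 lower, where 27.1% were called higher. The median difference of the members was 5.70 for Mstn-null MDSC, or 4.74 with bounds, and 5.63 for WT MDSC, or 4.01 with bounds. Over all genes tested the medians were -0.12 for Mstn-null MDSC and 0.03 for WT MDSC. The balance of all genes between Mstn-null MDSC and ESC, 5849 higher and 7725 lower, depended on the scaling. Median centring gave 6253 higher and 5473 lower.

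The transcription factor Scx was higher by 4.74 ± 0.44 in Mstn-null MDSC (SE, n = 2 and 2 arrays, limma adjusted p = 0.00156) and by 5.63 ± 0.44 in WT MDSC (adjusted p = 0.00112). Thbs4 was higher by 9.67 ± 0.90 in Mstn-null MDSC and 7.79 ± 0.90 in WT MDSC, Comp by 7.31 ± 0.82 in Mstn-null MDSC and 7.16 ± 0.82 in WT MDSC, and Prg4 by 9.73 ± 0.87 in Mstn-null MDSC and 8.62 ± 0.87 in WT MDSC. These 3 matrix genes passed in both genotypes, with limma adjusted p between 0.00144 and 0.00285. Tnmd was at least 52.6-fold higher in Mstn-null MDSC (limma adjusted p = 7.93e-04) and at least 16.1-fold higher in WT MDSC (adjusted p = 0.00151).

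The remaining members were nearer the threshold. Tnc differed by 2.92 ± 0.66 in Mstn-null MDSC (SE, n = 2 and 2 arrays, limma adjusted p = 0.0175) and by 2.35 ± 0.66 in WT MDSC (adjusted p = 0.0340). Kera was at least 13.1-fold higher in Mstn-null MDSC (limma adjusted p = 0.00332) and was called higher in WT MDSC (adjusted p = 0.0309). The WT value, 1.58-fold by the same rule, is not a strict lower bound, since only the first WT array was well above background. Chad was higher in WT MDSC by 1.00 ± 0.21 (limma adjusted p = 0.0138) and differed by -0.29 ± 0.21 in Mstn-null MDSC (adjusted p = 0.285, not called). Mkx was called in neither genotype, at 1.84 ± 0.93 in Mstn-null MDSC (limma adjusted p = 0.150) and 1.54 ± 0.93 in WT MDSC (adjusted p = 0.210). The WT difference of Mkx was 0.24 without the first WT array (limma adjusted p = 0.757) and 2.85 without the second, which was called (adjusted p = 0.0245). The WT calls of Tnc and Kera were each lost in 7 of the settings tried, which were 16 for Tnc and 15 for Kera. Among those 7, leaving out the first Mstn-null array, the second or both gave the same values, so they are not separate results. The WT call of Chad was lost without the second WT array (0.85) or the ESC array of passage 15 (0.89).

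The comparison of Mstn-null with WT MDSC asked whether the members follow the genotype, on arrays of different slides. No member was called, and among all 25057 genes tested limma called 0 (0%), with a smallest adjusted p of 0.0548. At an unadjusted p under 0.05 there were 3 members, Kera, Tnmd and Chad, against 3671 genes, or 14.7%, over the whole array. Kera met the condition for testing, both arrays of a group well above background, only through Mstn-null MDSC. That is the group where it was high, so Kera adds no support in these counts. The arrays of the genotypes did not overlap in 6 members, and over all genes 16.6% were higher in Mstn-null MDSC without overlap and 34.8% lower. The median difference of the 9 members was 0.57, against -0.12 over all genes.

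Kera, at -1.13 and -1.64 in Mstn-null MDSC against -3.36 and -5.50 in WT MDSC, had a fitted difference of 3.05 ± 0.72 (SE, n = 2 and 2 arrays, limma adjusted p = 0.161), with a 95% interval of 1.20 to 4.90 before any adjustment for the number of genes. It was well above background on 1 of 2 WT arrays, so this size rests partly on background signal. Tnmd differed by 1.71 ± 0.53 (limma adjusted p = 0.240, interval 0.36 to 3.06), with both Mstn-null arrays above both WT arrays. Chad went the other way, with both Mstn-null arrays below both WT arrays and a difference of -1.29 ± 0.21 (limma adjusted p = 0.0977, interval -1.82 to -0.76). Scx differed by -0.89 ± 0.44 (limma adjusted p = 0.451, interval -2.02 to 0.23), also with the Mstn-null arrays lower.

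Thbs4 and Prg4 had higher values in both Mstn-null arrays than in either WT array, with differences of 1.89 ± 0.90 (SE, n = 2 and 2 arrays, limma adjusted p = 0.442) and 1.11 ± 0.87 (adjusted p = 0.626). The difference of Thbs4 was 0.63 without the second WT array and 3.15 without the first, and that of Prg4 was 0.46 without the second and 1.75 without the first. That of Kera was 1.98 without the second WT array, and that of Tnmd 0.97. The genotypes overlapped in Mkx (0.30 ± 0.93, limma adjusted p = 0.911), Tnc (0.57 ± 0.66, adjusted p = 0.747) and Comp (0.15 ± 0.82, adjusted p = 0.953). Without the second WT array the differences of Mkx and Tnc turned to -1.01 and -0.36, and that of Comp turned to -0.36 without the first Mstn-null array.

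**Figure D2:**
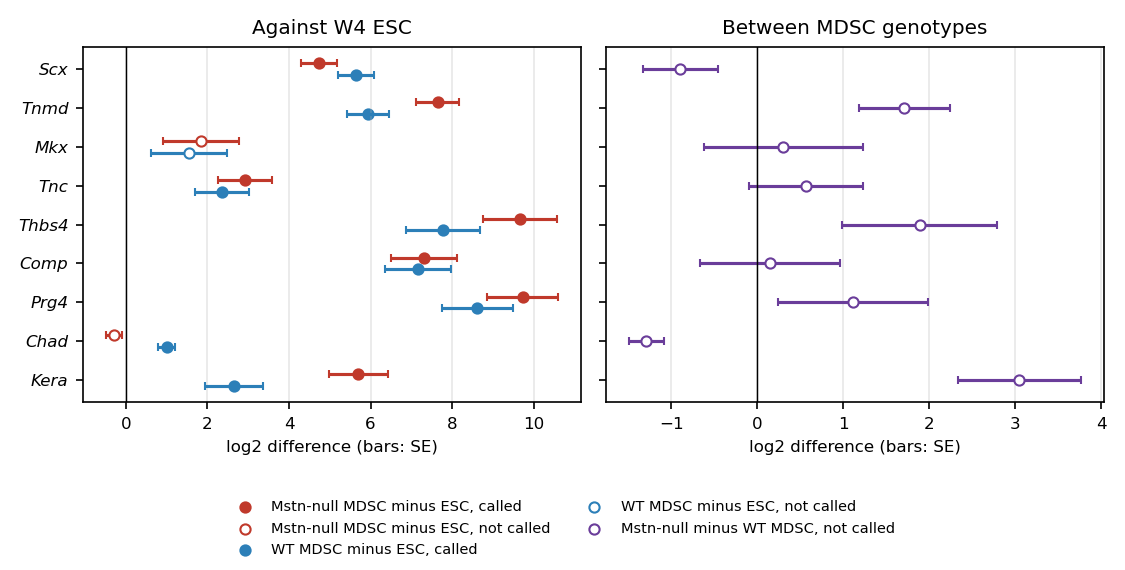
Log2 difference of each of the 9 genes (rows) with its SE (bars), for Mstn-null MDSC minus ESC, WT MDSC minus ESC and Mstn-null minus WT MDSC (x axes); filled points passed the threshold and open points did not. Thbs4 and Prg4 lie farthest right against ESC in both genotypes, at 7.79 to 9.73, and all 9 points between genotypes are open, from -1.29 for Chad to 3.05 for Kera.

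The arrays within a group were not equally close for these genes. The WT arrays differed by 2.61 for Mkx, 2.52 for Thbs4, 2.14 for Kera and 1.84 for Tnc, where the median gap over all genes tested was 0.266 and its 95th percentile 1.50. In each of these 4 genes, and in Scx, Tnmd and Prg4, the second WT array was the lower one. Comp had a gap of 0.059 in WT, with 13.4% of genes at a smaller one. In Mstn-null MDSC the median gap was 0.197 and its 95th percentile 1.16, and no member passed that percentile, the widest being Comp at 1.01. In ESC, Prg4 and Comp had gaps of 2.40 and 2.33 between the passages, where the 95th percentile was 1.60.

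For Tnmd and Kera the replicate spots separated scatter within an array from that between arrays. The 10 spots of Tnmd had an SD of 0.069 and 0.063 in Mstn-null MDSC and 0.095 and 0.167 in WT MDSC, against 0.667 and 0.419 in ESC, where no spot was well above background. The gap of 1.48 between the WT arrays was thus larger than the scatter of their spots. Kera had spot SDs of 0.089 and 0.080 on the Mstn-null arrays and 0.175 and 0.518 on the WT arrays. On the second WT array 0 of its 10 spots were well above background. Spots of an array share a labelled sample, so this scatter is technical and says nothing about the spread between isolations.

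**Figure D3:**
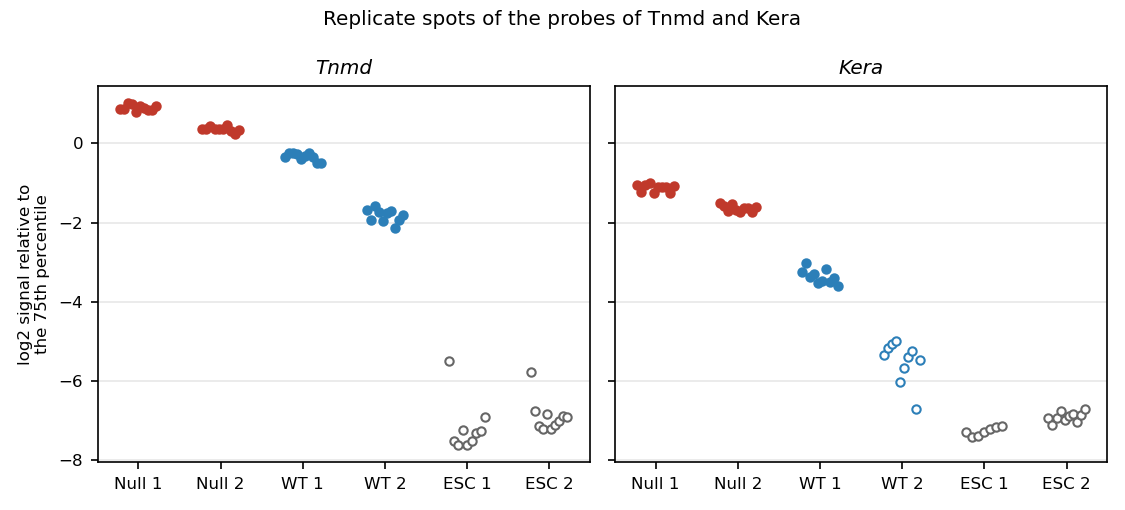
Each spot of the probes of Tnmd and Kera (y axis, log2 signal relative to the array's 75th percentile) on the 2 Mstn-null, 2 WT and 2 ESC arrays (x axis). On the Mstn-null arrays the spots lie within a narrow band with an SD of 0.063 to 0.089, and the second WT array sits below the first for both genes.

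Other tendon matrix genes moved largely in the same direction. Of 22 listed, 21 were tested, and 18 were higher and 1 lower in MDSC than in ESC, with a median difference of 4.87. Over all genes tested 28.3% were called higher and 31.4% lower. The 4 called genes with the largest fitted differences were Col14a1, which encodes a collagen of fibril surfaces (at least 127-fold higher in MDSC, limma adjusted p = 1.16e-04), the fibril-regulating proteoglycan gene Fmod (8.47 ± 0.58, adjusted p = 5.64e-04), the cartilage intermediate layer gene Cilp (at least 41.4-fold higher, adjusted p = 0.00132) and the decorin gene Dcn (6.68 ± 1.48, adjusted p = 0.0146). Neither ESC array showed Col14a1 or Cilp well above background, and Fmod was above it on 1 of 2. Dcn stood at 2.96 and -2.05 on the ESC arrays of passages 12 and 15, both well above background, so its ESC mean averages unlike values. The bound of Cilp, 5.37 on the log2 scale, lies below the measured difference of the lysyl oxidase gene Lox (6.44 ± 0.26), which was well above background on all 6 arrays. The main collagen of tendon is built from the products of Col1a1 and Col1a2, which differed by 4.16 ± 0.19 and 4.87 ± 0.44; they are named after their values were seen. The 1 gene called lower was Cilp2 (-1.68 ± 0.50, adjusted p = 0.0351). Eln at 0.33 and Lum at 3.83 were not called. Lum stood at 2.14 on the ESC array of passage 12, above both WT MDSC arrays. On that of passage 15 it was at -5.96, not well above background. Among the relatives of the members, such as other thrombospondins, tenascins and Iroquois factors, 10 of 14 tested were higher and 1 lower, with a median of 2.78. This list shares Thbs2, Tnxb, Fmod and Lum with the tendon matrix list and Tcf15 with the regulators below, so the counts are not of separate genes. The relatives called higher included Ogn (5.95 ± 0.62, limma adjusted p = 0.00160) and Omd (at least 14.6-fold higher, adjusted p = 0.00238).

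Regulators and signals of tendon formation moved both ways. Of 20 tested, 11 were higher and 7 lower in MDSC, with a median of 1.98, where 28.3% of all genes were called higher and 31.4% lower. The 4 called genes with the largest fitted differences were the fibroblast growth factor gene Fgf4 (at least 1100.3-fold lower in MDSC, limma adjusted p = 3.91e-05), Tcf15, the gene of the closest relative of scleraxis (at least 459.9-fold lower, adjusted p = 2.39e-04), the hedgehog effector gene Gli1 (-6.93 ± 0.33, adjusted p = 2.47e-04) and the cofactor gene Eya2 (5.52 ± 1.11, adjusted p = 0.0108). The TGF-beta branch, which induces Scx in limb tendon progenitors, included Tgfb3 at 3.96 ± 0.31, Tgfbr2 at 4.19 ± 0.49 and Smad3 at 2.05 ± 0.22, each called higher in MDSC, while Tgfb2 at 1.03 ± 0.47 was not called (adjusted p = 0.111). The early growth response genes Egr1 (2.88 ± 0.70) and Egr2 (4.75 ± 0.98), which act on tendon collagen genes, were also higher. The FGF-responsive genes Etv4 (-2.79 ± 0.27) and Etv5 (-3.22 ± 0.23) were lower. The genes of these last 3 sentences were named after their values were seen, and each called one had a limma adjusted p between 6.29e-04 and 0.0197.

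Markers of other cells that use some of the same genes were counted as well, beside 28.3% of all genes called higher in MDSC than in ESC and 31.4% lower. Of 14 cartilage genes 10 were tested, of which 1 was higher, Sox9 (4.37 ± 0.94, limma adjusted p = 0.0135), and 3 were lower, Matn3 at least 2.55-fold, Snorc at least 2.41-fold and Ihh at least 2.30-fold, with a median of 0.59. Sox9 was not well above background on the ESC array of passage 15, so its size rests partly on background signal. Acan, the gene of the main cartilage proteoglycan, differed by -0.83 and Col2a1 by 1.62, and neither was called. Of 8 bone genes 4 were tested, with Runx2 (at least 4.05-fold) and Spp1 (2.58 ± 0.69) higher and Alpl (-3.90 ± 0.49) lower. Of 9 fibroblast markers 8 were tested and 7 were higher, led by Ly6a (6.03 ± 0.88) and Mfap5 (5.58 ± 0.41), with a median of 4.79. All 7 tested macrophage markers were higher, among them Lyz2 (8.42, adjusted p = 0.00291) and Tyrobp (6.88, adjusted p = 0.00240), with a median of 3.14. Neither Lyz2 nor Tyrobp was well above background on the ESC array of passage 12, so their sizes rest partly on background signal. Of 12 muscle differentiation genes 8 were higher, among them Myog (at least 42.3-fold) and Tnnt3 (4.57 ± 1.06), and 1 was lower, Mymx (-4.35 ± 0.79), with a median of 2.79.

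The mean levels of these lists moved between the MDSC arrays beside the members. The 9 members averaged 2.13 and 2.07 in Mstn-null MDSC and 2.05 and 0.70 in WT MDSC, against -3.61 and -3.14 in ESC. The fibroblast markers averaged 4.25 and 4.16 in Mstn-null MDSC and 4.26 and 3.61 in WT MDSC, against 0.60 and -1.28 in ESC, so that the second WT array was the lowest MDSC array in both lists. All 8 tested fibroblast markers were well above background on every MDSC array. Their summed signal, in multiples of the 75th percentile, was 612 and 683 in Mstn-null MDSC and 640 and 419 in WT MDSC, against 26.7 and 19.3 in ESC.

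Muscle differentiation genes averaged 0.32 and -0.10 in Mstn-null MDSC and 3.66 and 0.57 in WT MDSC, against -1.64 and -1.25 in ESC. The first WT array thus stood apart, with a summed signal of 282, against 31.4 to 40.3 on the other 5 arrays. The ESC sums of 34.8 and 40.1 came largely from Mymx, at 4.79 and 4.66 there, the gene of this list called lower in MDSC. Macrophage markers averaged 1.25 and 3.22 in Mstn-null MDSC and -0.44 and -1.54 in WT MDSC, against -4.26 and -3.64 in ESC. Their summed signal was 48.2 and 180.8 in Mstn-null MDSC and 17.2 and 10.3 in WT MDSC, against 1.86 and 2.86 in ESC. Both Mstn-null arrays and the first WT array had all 7 well above background and the second WT array 6, Fcgr1 being the other, against 3 and 5 on the ESC arrays. All 7 macrophage markers had an unadjusted p under 0.05 between genotypes, with a median difference of 3.47 and higher values in Mstn-null MDSC, though none was called after adjustment. Of these markers, Fcgr1 met the condition for testing only through Mstn-null MDSC, where it was high. The part of these cell types in the differences of the members was not tested.

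Between genotypes no gene of the tendon matrix or of the tendon regulators was called. At an unadjusted p under 0.05 there were 2 of 21 tendon matrix genes, Col14a1 (2.85 ± 0.34, SE, n = 2 and 2 arrays, limma adjusted p = 0.0691) and Fmod (1.88 ± 0.67, adjusted p = 0.304), both with higher values in Mstn-null MDSC, and 3 of 20 regulators. Over all genes tested 14.7% had an unadjusted p under 0.05, so these counts do not set the lists apart. The median differences of the lists were 0.72 and 0.03.

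**Figure D4:**
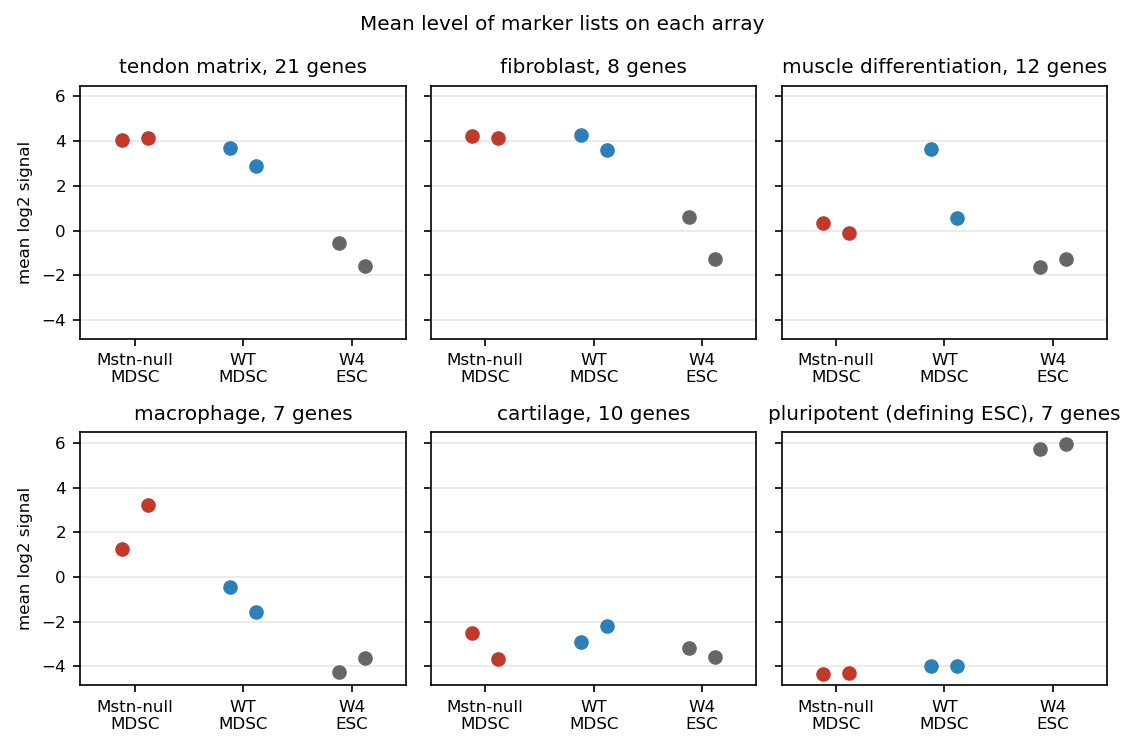
Mean log2 signal on each array (y axis, relative to the array's 75th percentile) in Mstn-null MDSC, WT MDSC and ESC (x axis), where points are arrays. Shown are the tested genes of the tendon matrix, fibroblast, muscle differentiation, macrophage, cartilage and pluripotency lists. The tendon matrix list stands above ESC on all 4 MDSC arrays. Muscle differentiation genes are highest on the first WT array at 3.66, and macrophage markers are highest on the second Mstn-null array at 3.22.

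To find the genes most like Scx, each named gene tested was centred on its own mean and the Euclidean distance to Scx over the 6 arrays was taken among 15468 candidates outside the members. The 5 nearest were Plscr2 at a distance of 0.701, Nnmt at 0.713, Slc16a4 at 1.06, Foxd2os at 1.11 and Lrmda at 1.12. The nearest member was Comp at 2.92, and Thbs4 was farther at 5.13. Nnmt encodes nicotinamide N-methyltransferase, and its level was 2.16 and 1.97 in Mstn-null MDSC and 2.89 and 2.90 in WT MDSC, against -3.37 and -2.62 in ESC. The lowest signal that counted as well above background was -5.29 on the ESC array of passage 12 and -4.89 on that of passage 15. Slc16a4, Foxd2os and Lrmda lay below it on both and Plscr2 on that of passage 12, so their distances rest partly on background signal.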

How the data were processed

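Per the labels' protocols, Cy3-labelled cRNA of 6 cultures was run on Agilent arrays of 1 colour. The deposited files hold scanner output with spot intensity values from Agilent Feature Extraction (10.7.1.1 according to the file headers, 9.1 in the submitters' processing notes). Per the file headers, the deposited processed intensity had its background subtracted, and it was not scaled between arrays. Array design coordinates were on mm9, per the file headers, and are not printed.

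Signals were taken as log2 and centred per array on the 75th percentile of its non-control spots (550 to 647 intensity units). Outlier-flagged spots (100 to 122 per array) were left out, spots of a probe averaged, and 23 probes without a value on some array dropped. Accessions matched 1 symbol for 26413 of 55681 probes in a RefSeq table of GRCm38.p6. The brightest probe represented a gene, chosen by its mean over the 6 arrays. Testing required both arrays of some group to show the gene well above background, and 25057 of 37153 genes and unnamed features met this (15477 named). limma 3.58.1 in R 4.3.3 fitted the 3 group means (lmFit and eBayes, two-sided; residual df 3, prior df 2.02). MDSC versus ESC used the mean of both genotype means. Bounds set the bright mean against, per dim array, the higher of its lowest signal well above background and the probe's own. A bright mean took every array of its side at its own signal. The MDSC and WT means of Kera thus included an array not well above background. The number of arrays limits the precision; where isolations share mice, p-values measure only the spread between these samples.

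The members and gene lists were chosen with earlier results of these data known, and so support nothing beyond their description. From each list the text names at most the 4 called genes with the largest fitted differences, and any other gene of a list was chosen after its values were seen. No probe matched Col12a1, Prelp, Bglap, Col6a3 or Cd68. Replicate numbers were not taken as pairs: over genes, deviations of same-numbered MDSC arrays correlated at r = -0.40. Alternatives were other scalings, normexp (offset 50) from median foreground and background intensities, since the files give no mean signal, other filters, probe rules, sample sets, a variance trend with a robust fit, blocks and each array left out.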

Additional observations from a re-analysis of the deposited data

How the results depend on the processing

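Against ESC, the tests of the 9 genes in 3 comparisons gave 423 values under other settings, of which 394 kept their direction and their side of the threshold. Some settings repeat the same fit, such as leaving out 1 or both arrays of the group not compared, so these values are not all separate. With only features well above background on all 6 arrays, Tnmd, Prg4 and Kera were not tested, so 4 members were called higher in MDSC versus ESC, 4 in Mstn-null MDSC and 5 in WT MDSC. Leaving out 1 array gave 6 to 8 members higher in MDSC versus ESC, 6 to 8 in Mstn-null MDSC and 5 to 8 in WT MDSC; 5 in WT MDSC was found without the ESC array of passage 15. An arm left with 1 array was assumed to vary like the others. Chad turned to -0.29 in MDSC versus ESC on the shared slide and was called with quantile normalization (0.51, adjusted p = 0.0390). Mkx was called in Mstn-null MDSC versus ESC with the WT arrays left out (1.84, adjusted p = 0.0353). Normexp, which compresses dim signals, moved Tnmd to 3.21 and Kera to 1.43 in MDSC versus ESC, and Kera lost its call in WT MDSC versus ESC (0.69, adjusted p = 0.0679). Over the 7 settings that lost a WT call, the adjusted p of Tnc ran from 0.0524 to 0.127 and that of Kera from 0.0543 to 0.118; apart from those named, the cause was not tested.

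Between genotypes no setting called a member. Leaving out 1 array gave differences of -1.01 to 1.61 for Mkx, -0.36 to 1.49 for Tnc and -0.36 to 0.66 for Comp. Quantile normalization called 11 genes higher and 14 lower in Mstn-null MDSC, none of them a member. With the replicate block, limma called 0 members and 0 of 25057 genes, as did a crossed block, added after seeing the data, and the 4 MDSC arrays without a block. Median centring moved the median of all genes from -0.03 to 0.12 in MDSC versus ESC and from -0.12 to 0.04 between genotypes. Signals near background limit Tnmd and Kera in ESC, Kera on the second WT array and Prg4 on the ESC array of passage 15.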

Other observations

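Among the relatives of the members, several not yet described were called higher in MDSC than in ESC; their choice came after their values were known. The thrombospondin gene Thbs1 differed by 4.80 ± 0.71 (SE, n = 4 and 2 arrays, limma adjusted p = 0.00413) and Thbs2 by 4.86 ± 0.76 (adjusted p = 0.00502), while Thbs3 differed by 1.31 ± 0.41 (adjusted p = 0.0419). The tenascin gene Tnxb differed by 3.22 ± 0.79 (limma adjusted p = 0.0198), and Tnn, at 2.12 ± 1.29, was not called (adjusted p = 0.208). Mohawk is related to the Iroquois homeodomain factors, of which Irx1 (2.34 ± 0.75), Irx3 (2.15 ± 0.45) and Irx5 (2.04 ± 0.26) were called higher, with limma adjusted p between 0.00272 and 0.0443, and Irx2 at -0.45 ± 0.28 was not called. Cnmd, the relative of Tnmd that marks cartilage, was well above background on 0 of the 6 arrays and was not tested.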
